A study of Mus musculus with 2 samples.

Results

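The genes described here are 7 markers of hair follicle and gut stem cells, Lgr4, Lgr5, Lgr6, Cd34, Lhx2, Tbx1 and Axin2. They were chosen by name from the 31054 features of the normal library and the 32285 features of the wounded library, and their levels were followed across the 4 normal and 6 wounded clusters that the authors named, and in the cells that passed the stated filters but are absent from the deposited tables of named cells. Both libraries hold single cells of the anorectal junction of C57/BL6J mice, where the transition zone (TZ) joins the stratified epithelium of the anal canal to the simple epithelium of the rectum. The mice carried K17CreERT2 and a Rosa26 ZsGreen1 reporter, received tamoxifen for 2 days, and were pooled, at least 5 to a library. One library was made from normal tissue, and one from tissue taken 1 week after a wound made with EDTA, where the methods give 2 to 4 months as the age of wounded mice used for lineage tracing and 6 to 8 weeks for animals in general. Cre is driven by the Krt17 promoter, and the sort named in the methods kept EpCam+ cells after exclusion of CD45, CD11b, CD31 and PDGFRa.

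Lgr4, Lgr5 and Lgr6 are receptors for R-spondins, secreted proteins that strengthen Wnt signalling by removing the ubiquitin ligases Znrf3 and Rnf43 from the cell surface. Lgr5 marks stem cells at the base of intestinal crypts and cells of the hair follicle bulge and germ, Lgr6 marks cells of the upper hair follicle and the epidermis, and Lgr4 is expressed broadly in epithelia. Lhx2 and Tbx1 are transcription factors of hair follicle stem cells, Cd34 is a surface protein of the mouse bulge that endothelial cells and many fibroblasts also carry, and Axin2 is a negative feedback regulator and general target of Wnt/beta-catenin signalling.

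In GENCODE M21 on GRCm38, Lgr4 (ENSMUSG00000050199) lies on chromosome 2 at 109917647 to 110014257 and Lhx2 (ENSMUSG00000000247) on the same chromosome at 38339281 to 38369733, both on the plus strand. Lgr5 (ENSMUSG00000020140) lies on chromosome 10 at 115450311 to 115587780 and Lgr6 (ENSMUSG00000042793) on chromosome 1 at 134983301 to 135105276, both on the minus strand. Cd34 (ENSMUSG00000016494) lies on chromosome 1 at 194938819 to 194961279 and Axin2 (ENSMUSG00000000142) on chromosome 11 at 108920349 to 108950783, both on the plus strand, and Tbx1 (ENSMUSG00000009097) lies on chromosome 16 at 18580979 to 18590671 on the minus strand. No annotated gene overlaps any of the 7 on the same strand. Of the 7 genes, 6 had a promoter entry in RefSeq (GRCm38.p6), with 8 entries in all.

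The bases before the start sites of Lhx2 and Tbx1 are shown because these genes had the most alike pattern of levels among the 7 across the groups of cells described here. Each sequence is the 250 bases before the RefSeq start that matches the start of the gene, 5' to 3' on the strand of the gene, plus for Lhx2 and minus for Tbx1. Capitals mark the GC box GGGCGG on either strand.
Lhx2, chr2:38339031-38339280: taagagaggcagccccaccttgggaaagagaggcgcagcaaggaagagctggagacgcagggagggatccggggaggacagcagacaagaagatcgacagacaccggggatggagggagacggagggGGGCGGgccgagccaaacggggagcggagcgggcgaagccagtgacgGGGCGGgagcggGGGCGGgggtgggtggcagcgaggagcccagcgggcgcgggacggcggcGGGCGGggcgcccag
Tbx1, chr16:18590672-18590921: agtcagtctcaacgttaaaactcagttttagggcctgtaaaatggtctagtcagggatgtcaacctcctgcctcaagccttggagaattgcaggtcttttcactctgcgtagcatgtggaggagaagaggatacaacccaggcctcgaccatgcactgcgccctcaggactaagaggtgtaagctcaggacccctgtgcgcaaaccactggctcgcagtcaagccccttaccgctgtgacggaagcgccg
The Lhx2 sequence held 4 GC boxes and the Tbx1 sequence held 0. Tbx1 has a second RefSeq start inside the gene, whose entry (chr16:18588850-18589149) held 2, and the second entry of Lhx2 (chr2:38351058-38351357) held 0. GC content over 300 bases was 74.7% in the first Lhx2 entry and 58.3% in the Tbx1 entry shown, with a median of 52.7% over 32851 promoters. A GC box was found in 35.7% of these promoters. The TCF/LEF letters CTTTGA, searched on both strands, were found in 16.0% of all promoters and in 0 of the 8 entries of the 7 genes, Axin2 included. These matches are descriptions of letters in a window and say nothing of binding.

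Each condition is 1 library, so no test between conditions or clusters was made, cells are not replicates, and bracketed ranges are exact 95% intervals for counting error only. Levels are the UMIs of a gene, each 1 captured RNA molecule, summed over the cells of a group and divided by all UMIs of these cells, in CPM. Levels of one gene are compared between groups of cells, not with those of another gene. The normal library held 17617944 UMIs over 2564 barcodes and the wounded library 88260050 UMIs over 17216 barcodes, and 1548 and 5225 barcodes passed the filters with medians of 9437.5 and 10041 UMIs. The deposited tables name 939 and 4147 cells. The filters left 610 normal and 1078 wounded cells outside the tables, and the methods of the study name anal gland, hair follicle and fibroblast cells as removed from both data sets, with a further filter on Lgr5, Lhx2 and Tbx1 in the normal sample. The low level of these 3 genes in the deposited normal cells was therefore set by that selection and is no result. Only 1 barcode was shared by the libraries. The cluster names do not carry the same markers in both libraries. The cells named Basal in the wounded library held 1443 CPM of Krt13 and 1987 CPM of Krt10, keratins of differentiated stratified epithelium, closer to the normal Anal Canal (812 and 2228 CPM) than to normal Basal (2.96 and 48.4 CPM).

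The cells outside the tables carried most UMIs of the hair follicle genes. They held 37.3% of all UMIs of the filtered normal cells and 21.5% of those of the wounded cells. They held 97.9% of the normal and 80.2% of the wounded Lhx2 UMIs, and 96.9% and 79.2% of those of Tbx1. Lgr5 followed with 90.4% and 63.2%, and Cd34 with 54.7% and 70.2%. Most of these Cd34 UMIs lay outside the hair follicle-like cells described below. Those cells held 53 of the 179 normal and 57 of the 408 wounded ones. The normal shares of Lhx2, Tbx1 and Lgr5 were set by the filter on these genes and are no result. The wounded shares follow a selection too. The paper removed a hair follicle cluster from both data sets, and names Lhx2 and Lgr5 among the known genes of the normal one. Lgr4 and Axin2 stayed near the share of all UMIs, with 43.6% and 20.4% for Lgr4 and 43.3% and 15.1% for Axin2. Lgr6 stood apart, with 51.5% in the normal and 8.87% in the wounded library, where 380 of its UMIs lay in named cells and 37 outside.

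**Figure D1:**
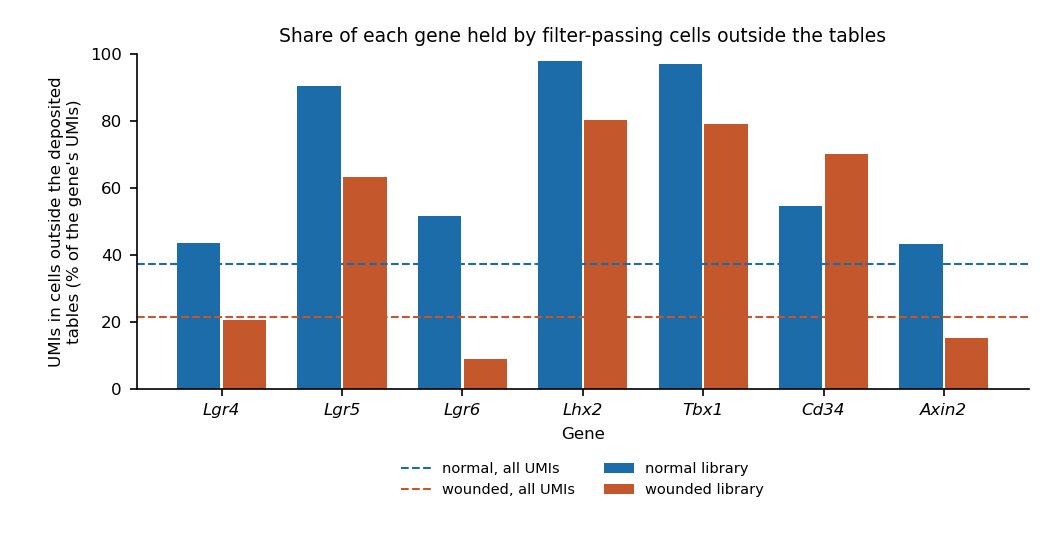
Percent of the UMIs of each gene (y axis) that lay in filter-passing cells outside the deposited tables, by gene (x axis), in the normal (blue) and wounded (orange) library, with dashed lines for all UMIs (37.3% and 21.5%). Lhx2, Tbx1 and Lgr5 stand above both lines, and Lgr6 in the wounded library stands at 8.87%. The normal table had been filtered on Lgr5, Lhx2 and Tbx1, and a hair follicle cluster had been removed from both tables.

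Repeated clustering with the 7 genes left out of the variable features placed 186 normal and 103 wounded outside cells in a cluster called hair follicle-like from 10 markers that include none of the 7. All 10 of these markers had a UMI in the normal cells and 9 of 10 in the wounded cells, with Fgf18 at 0. That count does not set these cells apart, since all 10 also had a UMI in wounded Regeneration and Wound_Stress. Of the 8 markers with at least 20 UMIs, 6 were at least 2-fold higher than in the deposited cells and 1 lower, in each library. Shisa2, a marker of the list, was higher by a log2 ratio of 5.84 (5.46 to 6.24) in the normal and 4.95 (4.59 to 5.29) in the wounded library. The name of the normal cluster depended on how marker lists were scored, and that of the wounded cluster was close, with a median log2 ratio over the list of 1.40 beside 1.38 for the basal stratified list. Because these cells were grouped by their expression, the levels that follow describe the cells and are no test.

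Lhx2 reached 231 CPM (207 to 258) in the normal hair follicle-like cells, from 318 UMIs in 124 of 186 cells. In the wounded library it reached 278 CPM (240 to 321), from 190 UMIs in 71 of 103 cells. The deposited cells held 7 normal UMIs in 4 cells and 127 wounded UMIs in 60 cells. The normal deposited cells had been filtered on Lgr5, Lhx2 and Tbx1, so the normal contrast was set by that selection and is no result. A hair follicle cluster had been removed from the wounded deposited cells, so the wounded contrast also follows a selection. The log2 ratio of hair follicle-like over deposited cells was 8.38 (7.32 to 9.71) in the normal and 6.57 (6.24 to 6.91) in the wounded library.

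Tbx1 showed the same order. It reached 221 CPM (197 to 248) in the normal cells, with a UMI in 99 of 186, and 305 CPM (265 to 349) in the wounded cells, with a UMI in 82 of 103. The log2 ratios over the deposited cells were 7.80 (6.90 to 8.88) and 6.87 (6.53 to 7.21). The normal ratio was again set by the filter, and the wounded one again follows the removal of a hair follicle cluster. After each cell was thinned to 2000 UMIs, the share of hair follicle-like cells with a Tbx1 UMI was 28.7% in the normal and 42.4% in the wounded library, and that of Lhx2 was 33.9% and 39.4%. No UMI of Lhx2 or Tbx1 was found in the 187 wounded fibroblast-like cells (median 7766 UMIs), which allows a share of up to 1.60% of cells with a UMI. In the 33 wounded endothelial-like cells (median 4708 UMIs) each had a UMI in 2 cells, a share of 6.06%, against 68.9% for Lhx2 and 79.6% for Tbx1 in the wounded hair follicle-like cells (median 6149 UMIs). In the normal library, 3 of the 45 cells of the unnamed group led by Hba-a1 had a Tbx1 UMI, a share of 6.67%, and none had one of Lhx2.

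Lgr5 was 72.8 CPM (59.2 to 88.5) in the normal hair follicle-like cells, with 100 UMIs in 53 cells. It was 227 CPM (193 to 266) in the wounded cells, with 155 UMIs in 68 cells. These intervals do not overlap, but each comes from 1 library, and condition, library and the makeup of the rebuilt cluster cannot be told apart. The log2 ratio over the deposited cells was 6.04 (5.70 to 6.37) in the wounded library, after removal of a hair follicle cluster. It was 6.06 (5.16 to 7.11) in the normal library, where the filter on Lgr5, Lhx2 and Tbx1 had chosen the deposited cells.

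Cd34 was 38.6 CPM (28.9 to 50.5) in the normal hair follicle-like cells and 83.5 CPM (63.2 to 108) in the wounded ones. Of the 35 wounded hair follicle-like cells with a Cd34 UMI, 32 (91.4%) also had one of Tbx1, which 79.6% of all these cells had. Lgr4 was 125 CPM (107 to 145) and 102 CPM (79.9 to 129), the highest values of this receptor among the groups with over 50 cells. Both intervals overlap that of the normal Rectum. The wounded interval also holds the 92.8 CPM of the wounded cells outside the table in clusters of named cells. Lgr6 and Axin2 rested on few UMIs, 3 and 5 in the normal and 11 and 1 in the wounded hair follicle-like cells. The log2 ratios of Lgr6 over the deposited cells were -0.54 (-2.89 to 1.14) and 0.88 (-0.14 to 1.73), those of Axin2 0.11 (-1.60 to 1.47) and -2.23 (-7.53 to 0.26), and all 4 intervals hold 0. In the normal library 5 of the 7 genes (Lgr4, Lgr5, Cd34, Lhx2 and Tbx1) were at least 2-fold higher in these cells than in the deposited cells, beside 13.4% of all 11780 genes with at least 20 UMIs. The filter had used Lgr5, Lhx2 and Tbx1, so nothing is read from this count. Nor is anything read from the wounded count below, where a hair follicle cluster had been removed from the deposited cells. In the wounded library 4 of 7 were, beside 19.9% of 14306 genes, as the Lgr4 ratio was 0.87 (0.51 to 1.22), and 1, Axin2, was at least 2-fold lower, from 1 UMI, beside 9.39%.

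The normal hair follicle-like cells were not uniform. The 53 cells with an Lgr5 UMI (median 6713 UMIs) were set beside the 133 without one (median 6900 UMIs). Tbx1 was higher in the former by a log2 ratio of 1.71 (1.37 to 2.05), Krt15, a keratin of bulge and basal cells, by 1.62 (1.52 to 1.73), and Cd34 by 1.12 (0.29 to 1.95). Krt6a, a keratin of the companion layer and of activated epithelium, was lower, with 384 against 2983 CPM and a log2 ratio of -2.96 (-3.19 to -2.73), and Krt17 had a ratio of -1.49 (-1.56 to -1.41). In the wounded library the Lgr5 cells of this class (68 against 35) were also lower in Krt6a, at -2.71 (-3.80 to -1.73), while Krt15 was lower there, at -0.59 (-0.73 to -0.46), and the intervals of Tbx1 and Cd34 held 0.

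**Figure D2:**
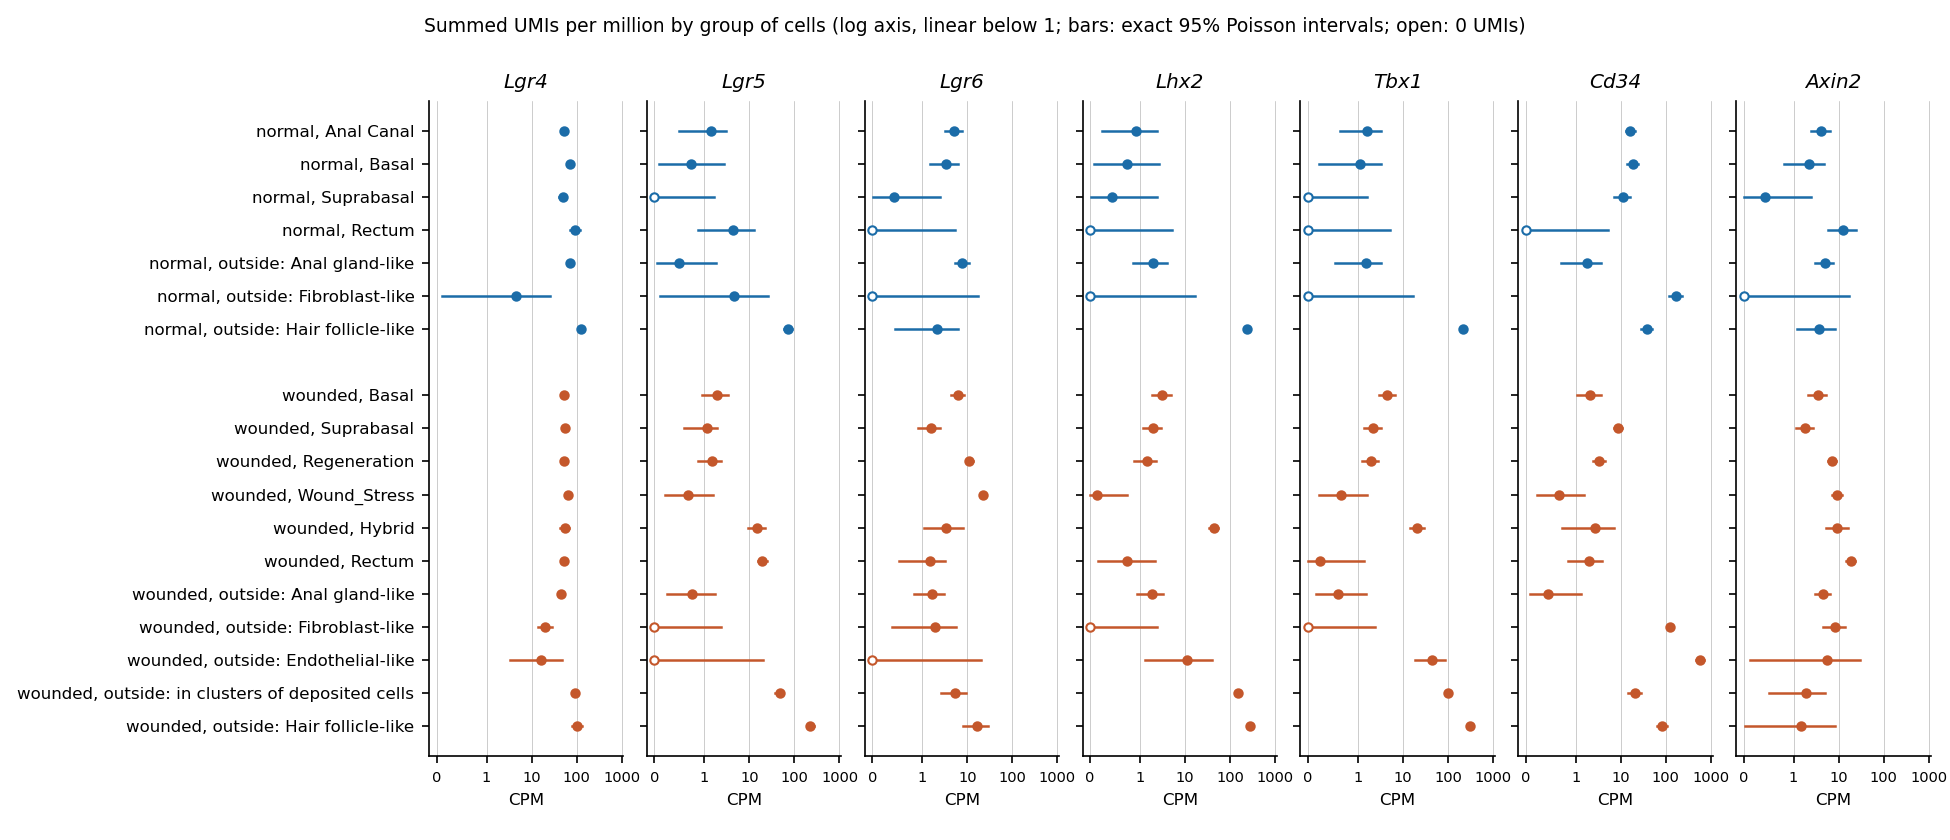
Level of each of the 7 genes in CPM (x axes, log scale, linear below 1) in named clusters and in outside cells (rows) of the normal (blue) and wounded (orange) library, with exact 95% Poisson intervals as bars and open points for 0 UMIs. Lhx2, Tbx1 and Lgr5 are highest in the hair follicle-like cells, Lgr6 in Wound_Stress, Axin2 in Rectum, and Cd34 in endothelial-like and fibroblast-like cells.

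Lgr5, Lhx2 and Tbx1 were also found together in single cells. At least 1 of the 3 had a UMI in 152 of 186 (81.7%) normal and 101 of 103 (98.1%) wounded hair follicle-like cells, and at least 2 in 94 and 83 cells. Each gene was common there, and overlap beyond the single shares was not tested. Of the wounded Lgr5 cells, 69.1% had Lhx2 (68.9% of all) and 76.5% had Tbx1 (79.6% of all). Of the wounded Lhx2 cells, 81.7% had Tbx1. The same normal shares were 71.7% (66.7% of all), 69.8% (53.2% of all) and 63.7%. Among named cells, at least 2 were found in 1 of 432 normal Anal Canal cells and in 0 cells of the other normal clusters. In the wounded library they were found in 12 of 316 Hybrid cells, 10 of 1032 Suprabasal, 9 of 991 Regeneration, 7 of 573 Basal, 0 of 397 Rectum and 0 of 838 Wound_Stress cells. Over 17 groups of cells (10 named clusters and classes of at least 50 outside cells), the genes with the levels most like those of Lhx2 on the scale log2(CPM + 10) were Tbx1 (Pearson r 0.991), Gjb2 (0.987) and Gm973 (0.981). For Tbx1 they were Lhx2, Adcy7 (0.989) and Krt42 (0.984), and for Lgr5 Ret (0.955), Scrg1 (0.955) and Kctd4 (0.946). These correlations describe 17 groups that share 2 libraries, and the hair follicle-like groups set most of their range. The normal named cells had been filtered on Lgr5, Lhx2 and Tbx1, so low shares and levels of these genes there were set by that selection. A hair follicle cluster had been removed from the wounded named cells too.

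**Figure D3:**
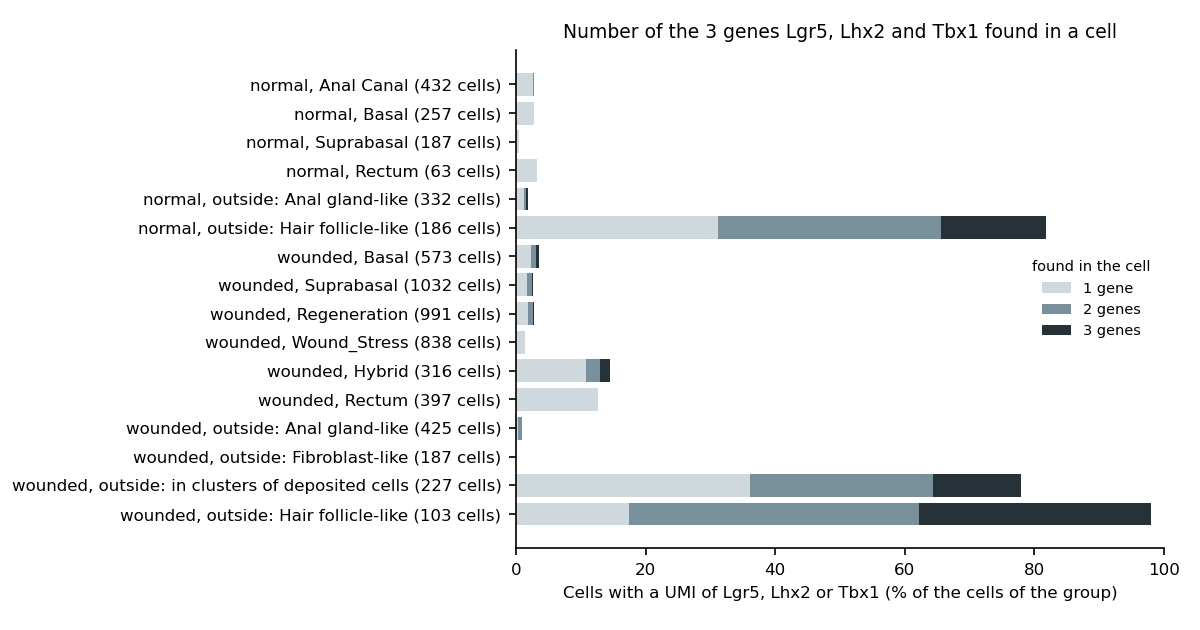
Percent of cells (x axis) with a UMI of 1, 2 or 3 of the genes Lgr5, Lhx2 and Tbx1 (light to dark) in each group of cells (rows, with the number of cells). The hair follicle-like cells reach 81.7% and 98.1%, outside wounded cells in clusters of deposited cells 78.0%, and the bar of the wounded Rectum holds single genes alone.

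A second set of wounded cells outside the table carried the 3 genes without falling in the hair follicle-like cluster. These 227 cells lay in rebuilt clusters made up mostly of named cells, and 177 of them (78.0%) had a UMI of Lgr5, Lhx2 or Tbx1. In the normal library 11 such cells were found, 2 of them with a UMI of these genes. The wounded set depended on leaving the 7 genes out of the variable features. With them kept, a wounded cluster of 341 cells was called hair follicle-like and held 265 outside cells, against 103 here. That larger cluster was led by Pyy, Insl5 and Ppy. Whether the 227 cells are a population apart from the hair follicle-like cells was not tested. Over the 227 cells Lhx2 was 148 CPM (132 to 165), Tbx1 100 CPM (86.9 to 114), Lgr5 46.7 CPM (37.9 to 56.9) and Cd34 20.5 CPM (14.8 to 27.6). These 4 of the 7 genes were at least 2-fold higher than in the named wounded cells, beside 11.7% of 14385 genes, and 1, Axin2, at -1.85 (-3.73 to -0.47), was at least 2-fold lower, beside 11.7%. The 227 cells are absent from a table from which a hair follicle cluster had been removed. These counts, and those of the hair follicle list that follow, come after that selection, and nothing is read from them. Of the 8 measured genes of the hair follicle list, 6 were at least 2-fold higher and 1 lower, with a median log2 ratio of 1.78 beside -0.00 for all genes. Shisa2 was higher by 4.53 (4.26 to 4.80), Barx2 by 2.63 (2.51 to 2.75) and Nfatc1, a factor of bulge stem cells, by 2.34 (1.84 to 2.82), while Fst was lower, at -1.30 (-1.71 to -0.91).

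The contrast was seen inside single rebuilt clusters at the resolution used here, and was not computed within clusters at a finer one. A hair follicle cluster had been removed from the named cells, so the levels and cell counts that follow come after a selection and are no test. In cluster 2, a cluster of 771 cells led by Nlrp10, Rnase12 and Krt16, Lhx2 was 135 CPM (116 to 156) in the 129 outside cells and 3.75 CPM (2.29 to 5.80) in the 642 named cells. In cluster 1, led by Cxcl1, Egr4 and Fosl1, it was 242 CPM (196 to 296) in 46 outside cells and 1.66 CPM (0.949 to 2.70) in 765 named cells. Counted by cell, 51 of the 58 cells of cluster 2 with at least 2 of the 3 genes lay outside the table (87.9%), against 17 of 638 cells with none of them (2.66%). In cluster 1 the same counts were 26 of 34 (76.5%) and 4 of 747 (0.535%), and in cluster 3, led by Sprr2d and Ppbp, 15 of 25 (60.0%) and 27 of 638 (4.23%). The methods name a filter on these 3 genes for the normal sample alone. Which step left these wounded cells out of the table was not tested. These clusters were chosen after the values were seen. The outside cells were shallower than the named cells in cluster 3 (median 3566 against 8499.5 UMIs) and cluster 1 (8026.5 against 12419), and deeper in cluster 2 (9790 against 8067). At resolution 0.4, a wounded cluster of 78 cells led by Rnase12, Krt16 and Krt75 held 76 outside cells, with Lhx2 among its leading genes. Another of 368 cells, called hair follicle-like, held 78 outside cells. The cluster of 612 cells with Cxcl1, Egr4 and Fosl1 among its leading genes held 0. The one of 631 cells led by Sprr2d and Ppbp held 5. The contrast within clusters 1, 2 and 3 may thus set different kinds of cells side by side, which was not tested.

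**Figure D4:**
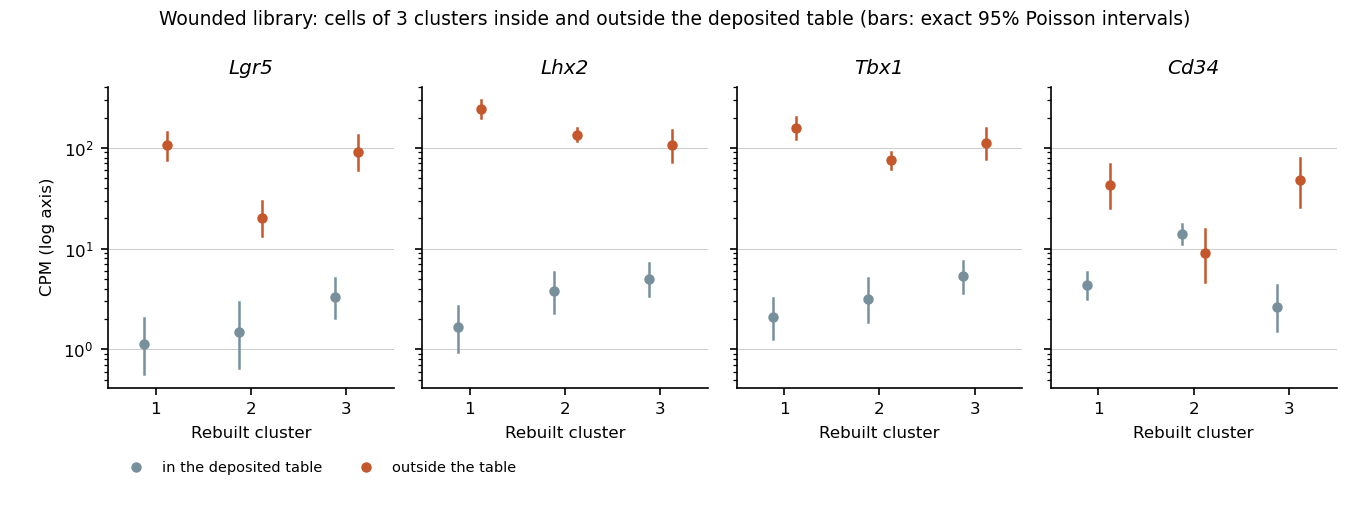
Level in CPM (y axis, log scale) of Lgr5, Lhx2, Tbx1 and Cd34 in cells of the wounded rebuilt clusters 1, 2 and 3 (x axis) that are in the deposited table (grey) or outside it (orange), with exact 95% Poisson intervals. Lgr5, Lhx2 and Tbx1 are higher outside in all 3 clusters, and Cd34 in clusters 1 and 3. A hair follicle cluster had been removed from the deposited table.

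Among the named clusters, Lhx2 and Tbx1 were highest in the wounded Hybrid cells. Lhx2 was 43.2 CPM (33.2 to 55.1), from 64 UMIs in 29 of 316 cells, and its log2 ratio over the other named wounded cells was 4.84 (4.32 to 5.37). Tbx1 was 20.9 CPM (14.2 to 29.7), with a log2 ratio of 3.42 (2.77 to 4.03), and Lgr5 was 14.8 CPM (9.30 to 22.5), with 2.28 (1.56 to 2.94). These 3 of the 7 genes were at least 2-fold higher, beside 14.7% of 14241 genes. Lgr6, at -1.41 (-3.04 to -0.17), was the 1 gene at least 2-fold lower, beside 6.43%. Of the hair follicle list, 1 of 8 genes was at least 2-fold higher, with a median log2 ratio of -0.09 beside 0.21 for all genes. Markers of other cell types were high in Hybrid. Inner root sheath markers, of the layer that encases the growing hair, summed to 1762 CPM (6 of 6 genes with a UMI) against at most 359 CPM in the other wounded clusters, and enteroendocrine markers to 20266 CPM (6 of 6) against at most 12.7 CPM. The 27 Hybrid cells in rebuilt cluster 12, led by the gut hormone genes Pyy, Insl5 and Ppy, held 0 UMIs of Lhx2. Hybrid cells were shallow, with a median of 2390 UMIs and 132 of 316 cells under 2000 UMIs, and their endothelial markers summed to 138 CPM (6 of 6 genes with a UMI) against at most 8.03 CPM in the other wounded clusters. The part of these markers and of depth in the levels of Lhx2, Tbx1 and Lgr5 was not tested. After thinning, a Lhx2 UMI was left in 6.52% of Hybrid cells (3.42 to 11.1) and in 0.282% of Rectum cells.

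Lgr5 and Axin2 were highest among the named clusters in the wounded Rectum, although the intervals of both genes overlapped those of Hybrid and that of Axin2 also the normal Rectum. In the wounded Rectum Lgr5 was 19.5 CPM (15.4 to 24.2), from 80 UMIs in 48 of 397 cells, and Axin2 18.7 CPM (14.8 to 23.4), from 77 UMIs in 57 cells. In the other wounded clusters except Hybrid, Lgr5 lay between 0.670 and 1.92 CPM. In the 63 normal Rectum cells Axin2 was 12.8 CPM (5.84 to 24.3) and Lgr5 4.26 CPM (0.879 to 12.5), from 9 and 3 UMIs. The log2 ratio over the other named clusters was 3.45 (2.97 to 3.93) for Lgr5 in the wounded library. It was 2.32 (-0.23 to 4.38) in the normal library, where the named cells had been filtered on Lgr5. For Axin2 it was 1.74 (1.35 to 2.12) and 2.26 (0.98 to 3.41).

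The wounded Rectum held less Lgr6, Cd34, Lhx2 and Tbx1 than the other named cells, whereas Lgr5 was higher, as given above. Lgr6 was lower by a log2 ratio of -2.71 (-4.16 to -1.57) and Cd34 of -1.11 (-2.35 to -0.10). Lhx2, from 3 Rectum UMIs, had a ratio of -2.11 (-4.41 to -0.53), and Tbx1, from 1, of -3.55 (-8.87 to -1.04). In all, 2 of the 7 genes were at least 2-fold higher in the wounded Rectum, beside 17.9% of 14241 genes, and 4 at least 2-fold lower, beside 16.0%. In the normal library 1 of the 4 genes with at least 20 UMIs, Axin2, was at least 2-fold higher, beside 17.5% of 11406 genes, and 1, Cd34, at least 2-fold lower, beside 14.9%. After thinning, the Axin2 ratio was 0.63, under 2-fold. Cd34 and Lgr6 had 0 UMIs in the 63 normal Rectum cells, against 148 and 32 in the other normal clusters, which allows up to 4.76% of cells with a UMI.

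Lgr4 was the receptor that varied least. In the 4 normal clusters it ranged from 49.1 CPM (40.4 to 59.0) in Suprabasal and 53.6 CPM (47.0 to 61.0) in Anal Canal to 73.2 CPM (63.4 to 84.1) in Basal and 92.3 CPM (71.2 to 118) in Rectum. Neighbours in this order overlapped except Anal Canal and Basal. In the 6 wounded clusters it lay between 52.5 CPM in Regeneration and 65.1 CPM (59.5 to 71.2) in Wound_Stress. The log2 ratio of Rectum over the other named cells was 0.67 (0.27 to 1.04) in the normal library and -0.10 (-0.31 to 0.10) in the wounded library.

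The genes around these receptors were read from 2 lists that hold none of the 7 genes, one of the Wnt and R-spondin pathway and one of gut crypt stem cells. Of the crypt list, 7 of 13 measured genes were at least 2-fold higher in the normal Rectum and 1 lower, with a median log2 ratio of 1.49 beside 0.04 for all genes. In the wounded Rectum 9 of 15 were higher and 2 lower, with a median of 1.16 beside 0.07. Ascl2, a transcription factor of crypt stem cells, was higher by 1.58 (0.58 to 2.46) and 3.24 (2.82 to 3.67), Ephb2, a receptor of the crypt base, by 2.44 and 2.47, and the ion transporter Slc12a2 by 2.53 and 3.70. Cd44 was lower in both, at -3.67 and -2.38. The stem cell marker Olfm4 had 0 UMIs in either Rectum cluster.

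The Wnt list did not move one way. In the normal Rectum 5 of 18 measured genes were at least 2-fold higher and 4 lower, and in the wounded Rectum 4 of 24 were higher and 8 lower. The ubiquitin ligase Rnf43 was higher by 2.03 (1.08 to 2.88) and 1.73 (1.48 to 1.98), and the transcription factor Tcf7l1 by 3.70 (3.22 to 4.17) and 3.75 (3.52 to 3.97). In the hair follicle-like cells the Wnt list was higher in 9 of 19 genes and lower in 0 in the normal library, with a median of 0.71 beside 0.20. It was higher in 10 of 24 and lower in 2 in the wounded library, with a median of 0.91 (0.97 with genes at 0 set to their bound) beside 0.24. The receptors Fzd1, Fzd2 and Fzd5 were higher by 1.43 to 3.27 in the normal and by 1.44 to 3.08 in the wounded cells.

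Within the wounded Rectum, cells with an Lgr5 UMI differed from the rest in crypt genes. The 48 cells (median 13507.5 UMIs) were set beside the 349 without a UMI (median 9194 UMIs), a split chosen after the values by cluster were seen. Smoc2 was 188 CPM against 50.2 CPM, a log2 ratio of 1.90 (1.56 to 2.25), Ascl2 57.4 against 16.7 CPM, 1.78 (1.14 to 2.40), and Axin2 43.5 against 14.1 CPM, 1.62 (0.90 to 2.32). Muc13, a transmembrane mucin of gut epithelium, was lower at 332 against 713 CPM, with a ratio of -1.10 (-1.31 to -0.90). Of the 13 crypt genes with a ratio, 8 had an interval above 0 and 1, Slc12a2, an interval below 0. Lgr4 had a ratio of -0.04 (-0.63 to 0.50).

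Lgr5 and Axin2 were found together in 21 wounded Rectum cells, 43.8% of the Lgr5 cells and 36.8% of the Axin2 cells, where 12.1% and 14.4% of all Rectum cells had each. Cells with an Axin2 UMI were the deeper ones too, with a median of 15014 against 8839 UMIs, and had 6 of 13 crypt genes with an interval above 0. In rebuilt cluster 6, which held 289 of the 397 cells, Lgr5 was 29.4 CPM, with 78 of its 80 UMIs, and Spink4, a goblet cell product, 408 CPM. In cluster 9, with 108 cells, Lgr5 was 1.37 CPM and Spink4 22537 CPM. In cluster 6 alone the ratio of Ascl2 in Lgr5 cells was 1.69 (1.00 to 2.38) and that of Axin2 1.37 (0.60 to 2.12), with 8 crypt genes above 0, at a larger difference in depth (13507.5 against 5016 UMIs). Slc12a2 turned from -0.28 (-0.47 to -0.10) over all Rectum cells to 0.66 (0.45 to 0.88) in cluster 6 alone.

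**Figure D5:**
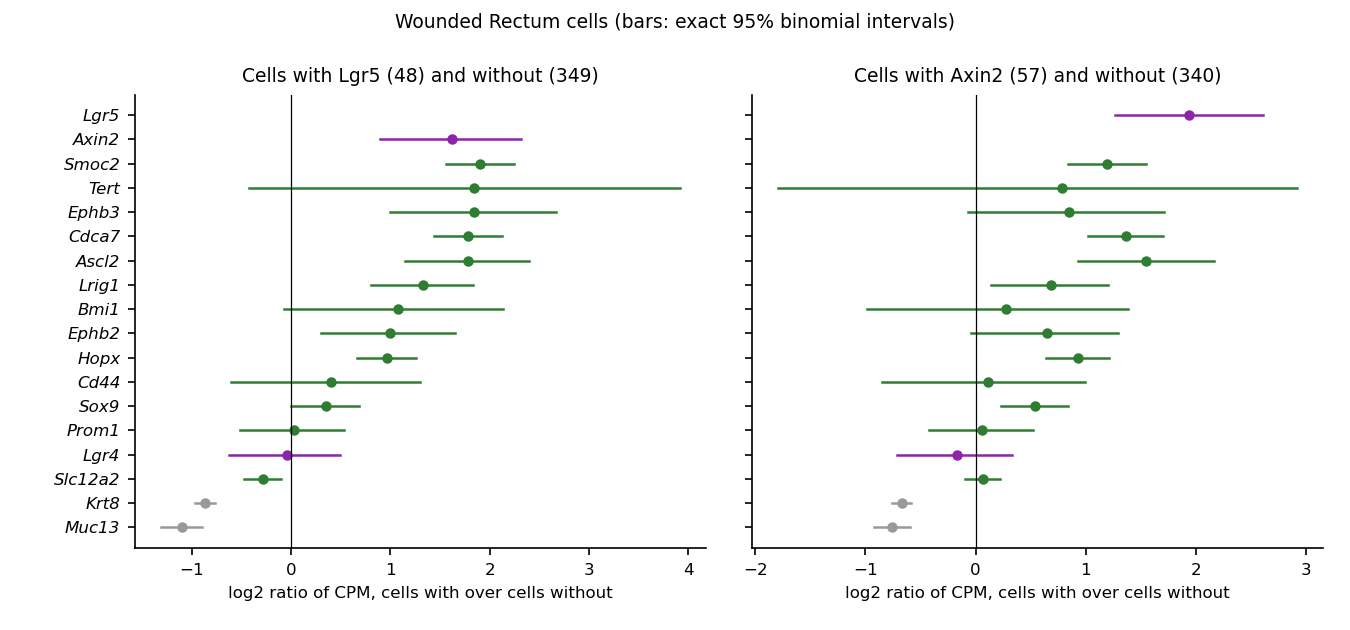
Log2 ratio of CPM (x axes) of crypt genes (green), Lgr4, Lgr5 and Axin2 (purple) and the epithelial genes Krt8 and Muc13 (grey) in wounded Rectum cells with over those without a UMI of Lgr5 (left) or Axin2 (right), with exact 95% binomial intervals. Smoc2, Cdca7, Ascl2, Lrig1 and Hopx lie above 0 in both panels, Muc13 and Krt8 below 0.

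Among the named clusters, Lgr6 was highest in the wounded Wound_Stress and Regeneration. It was 22.8 CPM (19.5 to 26.5) in Wound_Stress, from 170 UMIs in 121 of 838 cells, and 11.2 CPM (9.41 to 13.1) in Regeneration, from 145 UMIs in 101 of 991 cells. In the wounded hair follicle-like cells Lgr6 was 16.1 CPM (8.04 to 28.8), an interval that overlaps both. Basal followed with 6.27 CPM (4.39 to 8.68), and Hybrid, Suprabasal and Rectum lay between 1.46 and 3.37 CPM. Anal gland markers summed to 3308 CPM in Wound_Stress and 4156 CPM in Regeneration, against at most 1051 CPM in the other wounded named clusters. The part of gland-like cells in the Lgr6 levels was not tested. The log2 ratio of Wound_Stress over the other named wounded cells was 1.96 (1.66 to 2.26), and Lgr6 was the only 1 of the 7 genes at least 2-fold higher there, beside 4.16% of 14241 genes. Lgr5, Cd34, Lhx2 and Tbx1 were at least 2-fold lower, 4 of 7 beside 18.9%. Their ratios ran from -4.71 (-10.0 to -2.21) for Lhx2, which had 1 UMI here, to -2.17 for Tbx1. This was not particular to Wound_Stress. In Regeneration, Lgr5 (-1.56) and Lhx2 (-1.28) were at least 2-fold lower too, 2 of 7 beside 18.6%, and Cd34 and Tbx1 were not. In both comparisons the other named cells include Rectum, with 80 Lgr5 UMIs, and Hybrid, with 22 Lgr5 and 64 Lhx2 UMIs. Lgr5 was 1.46 CPM in Regeneration, beside 0.670 in Wound_Stress, 1.12 in Suprabasal and 1.92 in Basal. Lhx2 was 1.46 CPM in Regeneration, beside 0.134, 1.90 and 3.14 CPM in the same clusters. The part of Rectum and Hybrid in these ratios was not tested. In Wound_Stress, Axin2 had a ratio of 0.57 (0.16 to 0.96) and Lgr4 of 0.27 (0.12 to 0.41). None of the 24 measured Wnt genes and none of the 15 crypt genes was at least 2-fold higher in Wound_Stress, and 2 and 6 were lower, with medians of 0.15 and -0.68 (-0.61 with genes at 0 set to their bound) beside -0.00 for all genes.

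Most Lgr6 UMIs of Wound_Stress lay in 1 rebuilt cluster. Its 681 cells in cluster 0 held 164 UMIs (27.2 CPM, 23.2 to 31.7), and its 137 cells in cluster 4, which is led by anal gland genes, held 4 (3.54 CPM). Regeneration cells in cluster 0 had 28.5 CPM (17.7 to 43.6) and those in cluster 1 12.2 CPM (10.1 to 14.6). Lgr6 was among the 10 leading genes of cluster 0, beside Oxtr, Otoa and Il33. In the normal library the highest levels were 7.70 CPM (5.23 to 10.9) in the anal gland-like cells outside the table and 5.02 CPM (3.15 to 7.60) in Anal Canal. The 121 Wound_Stress cells with an Lgr6 UMI (median 9286 UMIs) were set beside the 717 without one (median 8265 UMIs). The basal keratins Krt5 and Krt15 were higher in the former by log2 ratios of 0.67 (0.55 to 0.79) and 0.65 (0.50 to 0.80), and the integrin Itga6 by 0.51 (0.32 to 0.70). Krt6a was lower, at -1.79 (-3.45 to -0.51). The genes with levels most like those of Lgr6 over the 17 groups were Kcnj2 (Pearson r 0.903), Hs6st2 (0.860) and Rbbp8 (0.857).

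Cd34 had its highest levels outside the epithelium. It was 573 CPM (469 to 693) in 33 wounded endothelial-like cells, with a UMI in 17. In fibroblast-like cells it was 166 CPM (116 to 230) in the normal and 125 CPM (108 to 144) in the wounded library. Among the named normal clusters it was 18.9 CPM (14.0 to 24.8) in Basal, 16.4 CPM (12.9 to 20.7) in Anal Canal and 10.95 CPM (7.09 to 16.2) in Suprabasal, whose intervals overlap, and 0 UMIs in Rectum. The endothelial markers summed to at most 9.94 CPM and the fibroblast markers to at most 69.1 CPM in these clusters, with Pdgfra and Kdr at 0 in all 4, and their part in the Cd34 levels was not tested.

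In the wounded library Cd34 was highest among named cells in Suprabasal, at 8.73 CPM (7.11 to 10.6), from 101 UMIs in 83 of 1032 cells. It lay between 0.670 and 3.31 CPM in the other wounded clusters. Basal over Suprabasal thus gave a log2 ratio of 0.78 (0.07 to 1.54) in the normal and -2.06 (-3.06 to -1.19) in the wounded library. The keratins above show that the cells called Basal differ between the libraries. Within the wounded Suprabasal cells, 503 in rebuilt cluster 2 had 16.5 CPM (12.9 to 20.9) of Cd34 with 2260 CPM of Krt15 and 1006 CPM of Cst6. Another 456, in cluster 5, had 2.74 CPM (1.65 to 4.27) with 170 CPM of Krt15 and 88121 CPM of Cst6, a protease inhibitor of stratified epithelium. The normal Basal cells, with 18.9 CPM of Cd34, had 2878 CPM of Krt15 and 1437 CPM of Cst6.

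Cells with a Cd34 UMI had more Krt15 in the 3 named clusters that were split by it. Wounded Suprabasal joins rebuilt clusters that differ in both genes, as given above. The split was not repeated within a rebuilt cluster, so the part of this mixture in the ratios was not tested. In wounded Suprabasal (83 against 949 cells, medians 10733 and 10593 UMIs) the log2 ratio of Krt15 was 1.37 (1.30 to 1.44), with Itga6 at 0.74 (0.50 to 0.97) and Col17a1 at 0.77 (0.52 to 1.02), both parts of the hemidesmosome. In normal Basal (42 against 215 cells) Krt15 was at 0.57 (0.49 to 0.64), and in normal Anal Canal (42 against 390 cells, at medians of 16428.5 and 7723 UMIs) at 1.06. Between Basal and Suprabasal, 0 of 2 genes with at least 20 UMIs (Lgr4 and Cd34) differed by 2-fold in the normal library, beside 17.1% of 9682 genes higher in Basal. In the wounded library Lgr6, at 2.01 (1.16 to 2.92), and Tbx1, at 1.07 (0.22 to 1.92), were at least 2-fold higher in Basal, beside 11.3% of 12291 genes, and Cd34 was at least 2-fold lower, beside 9.85%.

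Between libraries, clusters of the same name were set side by side without a replicate check, so that condition and library cannot be told apart. In Rectum, Lgr4 was lower in the wounded library (52.5 against 92.3 CPM), with a log2 ratio of -0.81 (-1.22 to -0.39). The wounded Rectum joins rebuilt clusters that differ in Lgr4. It was 63.5 CPM (54.9 to 73.2) in the named cells of cluster 6 and 32.9 CPM (24.3 to 43.7) in cluster 9. The part of this makeup in the ratio was not tested. In Rectum, Axin2 had a ratio of 0.55 (-0.45 to 1.73) and Lgr5 of 2.19 (0.59 to 4.50), the latter resting on 3 normal UMIs. After thinning the Lgr5 ratio was only a lower bound of -0.82, from 10 wounded and 0 normal UMIs. The normal cells had been filtered on Lgr5, so nothing is read from its ratio. In Suprabasal, Lgr4 had a ratio of 0.20 (-0.09 to 0.50) and Cd34 of -0.33 (-0.97 to 0.37). In the cells named Basal, Cd34 was 2.09 CPM in the wounded and 18.9 CPM in the normal library, a ratio of -3.17 (-4.22 to -2.25), between cells whose keratins differ as given above.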

How the data were processed

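Single cells of the anorectal junction were sequenced as 1 library per condition with the 10x 3' protocol. Raw UMI counts were deposited as a gene by barcode matrix made with Cell Ranger on mm10 (3.1.0 per the labels and the header of the normal file, 4.0.0 per the header of the wounded file). The authors also deposited a table of natural log values under a cluster name for each kept cell. Undoing the log and subtracting 1 gives whole numbers, whose origin is not given in the sources used here. Names were taken from this table, values from the counts.

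Filters and clustering were repeated as the methods state (200 to 5000 genes, under 25% mitochondrial UMIs, 2000 variable features, cell-cycle regression, 10 principal components, resolution 0.2) in Seurat 5.3.0 and R 4.3.3, with the 7 genes left out of the variable features. Outside cells took the class of the marker list with the highest median log2 ratio above 1 and found in at least 10 percentage points more cells, out of 11 lists. Clusters with at least 2 of Des, Myh11, Actg2 and Cnn1 among their 10 leading genes stayed unnamed. Levels are summed UMI counts over the summed library (CPM). Intervals are exact (Poisson, binomial, Clopper-Pearson; scipy 1.17.1) at 95% and cover counting error only. Ratios against 0 UMIs are bounds at 3 UMIs over the group. Where no cell had a UMI, the share allowed is 3 over the number of cells, not an exact interval. In medians over lists, a gene at 0 UMIs on one side ranks beyond all values. Genes with at least 20 UMIs over both sides were counted at 2-fold. Thinning to 2000 UMIs left out shallower cells. Scrublet in scanpy 1.11.5 called 4 normal and 0 wounded cells, too few to be used, and the top 6% of scores were left out as an alternative. Ratios were tested on simulated counts.

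Genes named are the 7, for each the 3 with the most alike levels, and members of 3 lists. The 7 genes, lists and comparisons were chosen with earlier results of these data known. The naming rule was settled after 3 scorings had been tried and values by cluster seen. Comparisons of Hybrid, Wound_Stress and outside cells in clusters of named cells, the splits within clusters, and the genes Muc13, Oxtr and Il33 were chosen after values were seen. Lgr5 had no promoter entry in the table used here.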

Additional observations from a re-analysis of the deposited data

Results flagged for a closer look

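The contrast of Cd34 between the cells named Basal and those named Suprabasal went opposite ways in the libraries. Its log2 ratio of Basal over Suprabasal was 0.78 (0.07 to 1.54) in the normal and -2.06 (-3.06 to -1.19) in the wounded library. The difference itself was not tested, since each condition is 1 library. Beside it, Krt13 was 2.96 CPM in the normal and 1443 CPM in the wounded cells named Basal. The wounded Suprabasal cells of rebuilt cluster 2 had Cd34, Krt15 and Cst6 levels closer to normal Basal than to normal Suprabasal. The part of the naming in the contrast was not tested.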

How the results depend on the processing

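Over the alternatives of the 14 main ratios, 70 values stayed within the interval of the ratio as reported and 13 moved beyond it. None of these 13 changed sign, while Lgr4 in the wounded Rectum, whose interval holds 0, went from -0.10 to 0.02 by the mean of per-cell values. Of the other values (ratios between libraries, shares after thinning to other depths, and most alike genes at another pseudocount), 33 stayed and 21 moved, and by the mean of per-cell values Lhx2 in Suprabasal went from 2.12, whose interval holds 0, to -1.34 (1 normal UMI). In the wounded hair follicle-like cells, Lgr5 (6.04) was 5.37 at resolution 0.4, 4.81 with the 7 genes kept in the variable features and 4.69 under 10% mitochondrial UMIs. Lhx2 (6.57) was 6.20 by the mean of per-cell values, 6.10 with the genes kept and 6.23 under 10%. Tbx1 (6.87) was 6.18, 5.96 and 5.65 under the same 3 settings, 6.28 at resolution 0.4 and 6.21 after thinning. After thinning, Axin2 in the normal Rectum was 0.63 (2.26 as reported) and Lgr4 in the wounded Rectum -0.52 (-0.10). Thinning left 0 Lhx2 UMIs in the normal deposited cells, so that only a bound of at least 7.10 remained, and 9 thinned values gave a bound or none. Without the cells of highest doublet score all 14 stayed within their intervals, as did 8 of 8 with the authors' whole numbers. With clusters named by the mean log2 ratio over all 11 lists, an alternative chosen after seeing the data, the normal hair follicle-like cluster took the name of the inner root sheath and gave no value. Over 6 lists all 6 ratios were unchanged. No paired analysis was possible because each condition has 1 library, which also leaves no replicate to be left out.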

Other observations

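Values that belong to no named cluster were seen in 2 small groups. A normal group of 45 outside cells led by Hba-a1, Hbb-bs and Actg2 held 78 Cd34 UMIs in 9 cells (280 CPM, 221 to 350), beside 1009 CPM summed over 6 endothelial markers. In 33 wounded endothelial-like cells, 8 Tbx1 UMIs were found in 2 cells (43.3 CPM, 18.7 to 85.3), with no UMI of Lgr5.

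Of the 18 Lhx2 UMIs in wounded Basal, all lay in 5 of 573 cells, with up to 7 in a cell. In normal Anal Canal all 4 Lhx2 UMIs lay in 1 of 432 cells. Single cells thus carried the level of Lhx2 in these clusters.

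Axin2 outside the Rectum was spread thinly, with 95 UMIs in 86 of 991 Regeneration cells (7.31 CPM, 5.91 to 8.93) and 70 UMIs in 65 of 838 Wound_Stress cells (9.38 CPM, 7.31 to 11.9). Over the 17 groups the genes most like Axin2 in level were Iqgap2 (Pearson r 0.894), Dgkd (0.890) and Tecpr1 (0.865).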
